A study of Homo sapiens with 7 samples.

Results

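The effects of prolonged acidification and of SR protein kinase inhibition on gene expression were compared directly, without a control sample in the fit. HEK-293 is an established line of human embryonic kidney cells. The acidosis group (3 samples) had been kept for 48 h in medium of pH 6.6 with the vehicle DMSO. The SRPIN340 group (2 samples) had been kept for the same time at pH 7.4 with the inhibitor at 10 µM. Per the study's methods its medium held the same vehicle, DMSO. These are 5 of the 7 samples of the series, chosen by the labels of the columns. The other 2, the control group in DMSO at pH 7.4, are given only as background levels. The inhibitor and the pH therefore both differ between the groups compared, and a difference between them is not the effect of either alone. Poly(A)-selected RNA was sequenced from each sample, and its deposited estimated counts were summed over genes.

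SR proteins are splicing factors with a tail rich in arginine and serine, and they bind exonic splicing enhancers. The SRPK kinases phosphorylate this tail in the cytoplasm and the CLK kinases do so in the nucleus, which sets how SR proteins move between nuclear speckles and pre-mRNA. SRPIN340 inhibits SRPK kinases. Acidification of the medium is known to affect proton transport, lysosomes, glycolysis and protein folding.

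The libraries held 21370143, 13615816 and 14870301 counts in acidosis and 22425450 and 21788457 with SRPIN340. Of 19978 genes, 14615 passed the filter on low counts and were tested with edgeR. In acidosis the top 100 genes by count took 24.1% to 24.8% of a library, and with SRPIN340 15.3% to 15.4%. This share did not overlap between the groups (exact permutation test, two-sided, p = 0.1, the smallest that 3 against 2 samples allow). The counts were scaled by TMM (trimmed mean of M values), and levels are in CPM, counts relative to the scaled library total. CPM do not correct for gene length. Pairs of acidosis samples differed by more than 1 (log2) in 3.07% to 4.11% of genes, and the SRPIN340 pair did in 1.04%. The summed level of 14 markers of the line was 3370 to 3440 CPM in acidosis and 1480 to 1530 CPM with SRPIN340, mostly from vimentin (VIM, 2529 and 817 CPM on average). PAX8 held 3 counts or fewer in every acidosis library and was not tested. Among 14 markers of other cell types, 5 held 3 counts or fewer in every library, and the summed level was 91 to 103 CPM in acidosis and 70 to 85.4 CPM with SRPIN340, mostly from COL1A1 and LRP2. Of the 5 tested, 1 was called higher in acidosis by the limits given below and 0 lower. It was the leukocyte marker PTPRC (log2 fold change 2.57). In bulk RNA, a transcript present in fewer cells cannot be told apart from fewer transcripts in each cell.

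A large part of the transcriptome differed between the groups. With the limits of 0.05 on the adjusted p (Benjamini-Hochberg) and 1 on the absolute log2 fold change, 5065 genes were called, or 34.7% of those tested. Of these, 2133 (14.6% of those tested) were higher in acidosis and 2932 (20.1%) were lower. These shares of all tested genes are the background for the counts of called list members below. The limit on the adjusted p alone was passed by 67.8% of genes. The median log2 fold change (acidosis minus SRPIN340) was -0.067 and the median absolute log2 fold change was 0.76. For comparison, SRPIN340 against control gave 48 called genes, or 0.323%. Past a log2 fold change of 4, 113 genes were higher in acidosis and 83 were lower. The 95% interval lay within -1 to 1 for 5744 genes (39.3%). The levels of the groups did not overlap for 11552 genes, or 79% of those tested. Of the calls, 1506 were of genes that share exon sequence with another gene, between which reads may be split. By level in control, which the comparison did not use, 47.6% of 42 genes above 1000 CPM were called higher in acidosis and 26.2% lower. From 10 to 100 CPM the shares were 12.4% and 20.1%, and below 1 CPM 21.1% and 12.3%, so that they did not follow the level in 1 direction. The direction depended on the scaling: with libraries scaled by total count alone, the median log2 fold change moved to -0.66, and 777 genes were called higher and 5396 lower. Higher genes then made up 12.6% of the calls, in place of 42.1%. Fold changes are therefore relative to the typical gene, and total count scaling moves them down by about 0.6 on the log2 scale, so that smaller positive changes turn and negative ones grow. Under total count scaling, the background for the list counts below is 777 higher and 5396 lower of 14615 tested genes.

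**Figure D1:**
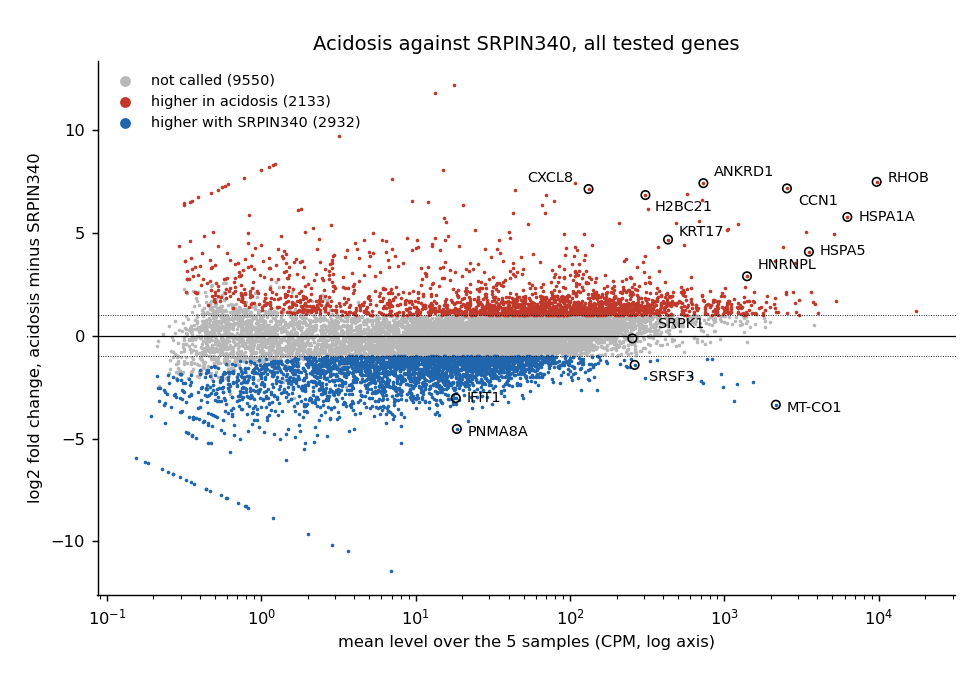
The log2 fold change of each of 14615 tested genes (acidosis minus SRPIN340) is plotted against its mean level over the 5 samples in CPM on a log axis. Red points (2133) were called higher in acidosis, blue points (2932) higher with SRPIN340, and grey points were not called; dotted lines mark a log2 fold change of -1 and 1. RHOB and CCN1 are among the red points at the upper right.

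The kinases of SR proteins were compared next. Of 17 tested kinases and phosphatases, 4 were called higher in acidosis and 0 lower, against 14.6% and 20.1% of all genes. With total count scaling 2 were called higher and 0 lower. The median log2 fold change of the 17 was 0.61, against -0.067 for all genes, and 0.015 with total count scaling. The levels of the kinases that SRPIN340 targets were within the fold limit. SRPK1 (chr6:35832966-35921342) was at 247, 251 and 233 CPM in acidosis and 264 and 271 CPM with SRPIN340, a log2 fold change of -0.13 (95% interval -0.27 to 0.008, adjusted p = 0.085). The acidosis samples were all below the SRPIN340 samples, but the difference did not pass the test. With total count scaling it was -0.73 and passed. SRPK2 was at 125, 136 and 127 CPM in acidosis and 86.1 and 83.5 CPM with SRPIN340, with a log2 fold change of 0.61 ± 0.074 (SE) and an adjusted p of 0.000137. With total count scaling it was 0.02 and did not pass. SRPK3, the kinase of muscle, was at 0 in each acidosis library and was not tested.

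CLK kinases phosphorylate SR proteins inside the nucleus, and 3 of 4 were called higher in acidosis. CLK1 (chr2:200853009-200864691) was at 174, 182 and 158 CPM in acidosis, 29.1 and 30.9 CPM with SRPIN340 and 39 and 37.1 CPM in control. It was thus 5.72-fold higher in acidosis (log2 fold change 2.52 ± 0.094, adjusted p = 2.71e-07), and the groups did not overlap. CLK3 was at 158, 122 and 129.8 CPM in acidosis and 45.3 and 40.3 CPM with SRPIN340 (log2 fold change 1.68 ± 0.13); it shares exons with EDC3. CLK4 was at 22.9, 21.7 and 23.4 CPM in acidosis, 11 and 10.4 CPM with SRPIN340 and 17.8 and 16 CPM in control (log2 fold change 1.08 ± 0.13). CLK2 overlapped between the groups, at 42.1, 29.6 and 30.6 CPM in acidosis and 39 and 34.9 CPM with SRPIN340. Its interval of -0.48 to 0.26 did not reach the size seen for CLK1. The remaining call was CSNK2A2, a catalytic subunit of casein kinase, with a log2 fold change of 1.21 ± 0.077. Scaled by total count, CLK4 and CSNK2A2 were at 0.49 and 0.61, under the fold limit, and CLK1 and CLK3 stayed called. Among the other kinases, DYRK1A had an interval of -0.34 to 0.012, and PRPF4B and CSNK2A1 had log2 fold changes of 0.71 and 0.75. The catalytic or nuclear subunits of PP1, a phosphatase of SR proteins, lay between -0.28 (PPP1R8) and 0.82 (PPP1CA), and none was called.

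Of 14 SR proteins, 0 were called higher in acidosis and 1 lower, and 13 had intervals within -1 to 1. Under total count scaling 0 were called higher and 4 lower, with a median of -0.71 against -0.66 for all genes. The call under TMM scaling was SRSF3 (chr6:36594353-36605600), at 157, 151 and 162 CPM in acidosis, 421 and 418 CPM with SRPIN340 and 446 and 452 CPM in control. It was 2.68-fold lower in acidosis (log2 fold change -1.42 ± 0.059, adjusted p = 4.34e-07), with no overlap between the groups. Below the fold limit, SRSF7 (-0.63), SRSF5 (-0.54), TRA2B (-0.42), SRSF12 (-0.35) and SRSF6 (-0.30) had an adjusted p under 0.05 and were lower in acidosis on the log2 scale. SRSF4 (0.65), SRSF9 (0.60), SRSF10 (0.53), SRSF2 (0.48) and TRA2A (0.35) passed the same limit in the other direction, and with total count scaling SRSF2, SRSF10 and TRA2A turned to the lower side. Without SRPIN340 replicate 2, SRSF12, TRA2A and SRSF6 did not pass, and SRSF12 also failed without SRPIN340 replicate 1, acidosis replicate 1 or acidosis replicate 3. SRSF1 was at 418, 339.7 and 362 CPM in acidosis and 324 and 332 CPM with SRPIN340 (interval -0.016 to 0.39), and passed the test only without acidosis replicate 2 among the fits with 1 sample left out. SRSF6 was at 100.4, 95 and 94.1 CPM in acidosis, 119.5 and 119 CPM with SRPIN340 and 178 and 180.4 CPM in control, so that both conditions lay below control. The median log2 fold change of the SR proteins was -0.12. Their share of all counts was 0.184% to 0.192% in acidosis and 0.290% to 0.291% with SRPIN340. Such a share is not scaled by TMM, so it carries the general shift of total count scaling, a median of -0.66 over all genes.

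**Figure D2:**
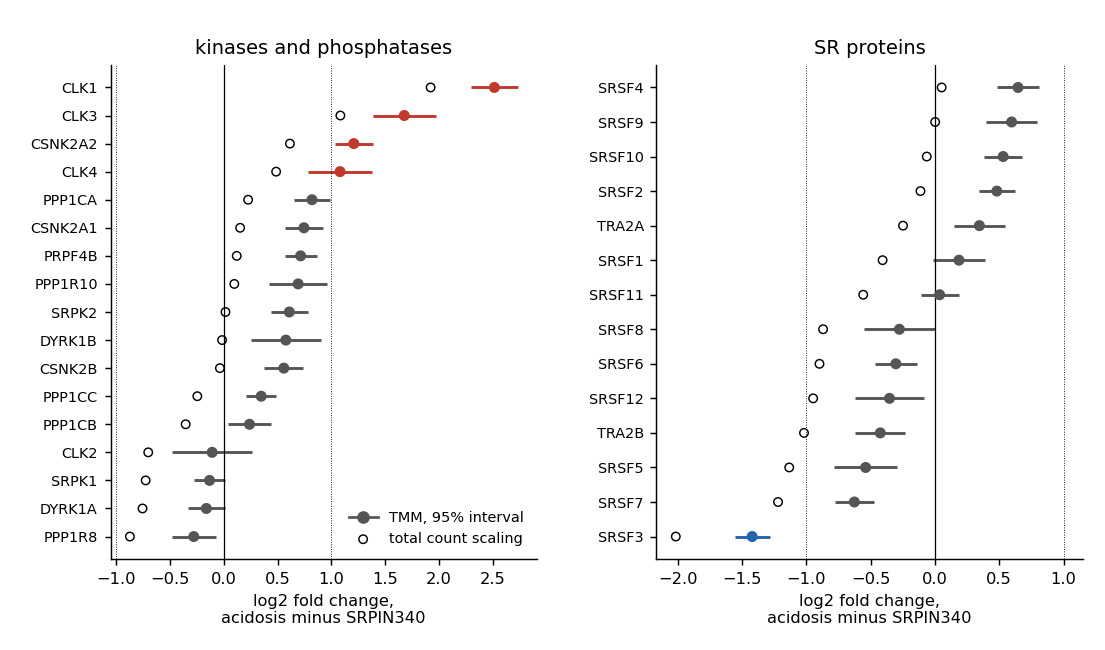
The log2 fold change (acidosis minus SRPIN340) is shown for 17 kinases and phosphatases and for 14 SR proteins, with filled points and 95% intervals under TMM scaling and open circles under total count scaling. CLK1, CLK3, CSNK2A2 and CLK4 (red) were called higher in acidosis and SRSF3 (blue) lower, and the open circles lie to the left of the filled points by about the same distance for each gene.

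Other splicing factors had medians above that of all genes under both scalings, and most members were not called. Among 40 tested spliceosomal snRNP proteins, 14 were called higher and 1 lower, and their median was 0.78 (0.19 with total count scaling, when 5 were called higher and 6 lower). SF3A1, a subunit of the U2 particle, was at 811, 823 and 727 CPM in acidosis and 176 and 187 CPM with SRPIN340 (log2 fold change 2.12 ± 0.076, adjusted p = 2.31e-07). SNRPB, of the Sm core shared by the snRNPs, was at 814, 682 and 806 CPM in acidosis and 187 and 178 CPM with SRPIN340 (2.08 ± 0.09). Of the other Sm proteins, SNRPD2 (1.31) and SNRPD3 (1.36) were called higher, and SNRPD1 (0.91) stayed under the fold limit. U2AF2, which recognizes the polypyrimidine tract, was higher in acidosis by 1.83 ± 0.1 on the log2 scale. PRPF6, which bridges the tri-snRNP, was the lower call at -1.03.

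In the hnRNP family, 4 of 26 were called higher, near the 14.6% of all genes, and 1 lower (median 0.43, and -0.17 with total count scaling, when 2 were called higher and 4 lower). HNRNPL (chr19:38836370-38852347) stood apart, at 2159, 2065 and 2195 CPM in acidosis, 303 and 275 CPM with SRPIN340 and 408 and 418 CPM in control. That is 7.4-fold higher in acidosis (log2 fold change 2.89 ± 0.066, adjusted p = 3.79e-08). Its exons overlap an unnamed gene. PTBP1, a repressor of exon inclusion, was 1.70 ± 0.058 higher in acidosis on the log2 scale, and HNRNPC 1.48 ± 0.054. HNRNPA1 was at 2023, 2019 and 2023 CPM in acidosis and 1557 and 1497 CPM with SRPIN340 (0.41, a direction that turned under total count scaling). HNRNPU, a scaffold of nuclear RNA, was lower in acidosis at 516 against 1152 CPM on average (-1.16).

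Of 29 nuclear speckle components, 9 were called higher in acidosis and 0 lower (median 0.59, and -0.004 with total count scaling, when 2 were called higher and 3 lower). Over all genes 14.6% were called higher and 20.1% lower under TMM scaling. CCNL1, a cyclin of speckles, was at 219.9, 264 and 194 CPM in acidosis and 35.5 and 28.3 CPM with SRPIN340 (2.82 ± 0.16). CCNL2 (1.61) and RNPS1 (1.43), part of the exon junction complex, were also called. The speckle scaffolds SON (0.60) and SRRM2 (0.89) were not past the fold limit. For mRNA export and nonsense-mediated decay, 6 of 24 genes were called higher and 1 lower (median 0.60, and 0.0093 with total count scaling, when 3 were called higher and 5 lower). NXT1, a partner of the export receptor, had a log2 fold change of 2.01 ± 0.12, and the decay factors SMG9 and SMG5 had 1.95 and 1.70. SMG6, the decay endonuclease, was the lower call (-1.19).

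Interferon-stimulated genes encode antiviral proteins and are switched on by STAT and IRF factors through an element in the promoter. They are described in detail because the genes that SRPIN340 lowered most clearly against control are among them. Those genes were picked with the same SRPIN340 samples, which favours a higher level in acidosis than with SRPIN340 for them. Of 57 interferon-stimulated genes tested, 27 were called lower in acidosis than with SRPIN340 and 3 higher, against 20.1% and 14.6% of all genes. The median log2 fold change of the list was -0.97. Under total count scaling 38 were called lower and 0 higher, and the median was -1.56. In mean level, 46 of the 57 were lower in acidosis than with SRPIN340. The mean with SRPIN340 lay below control for 52, and that in acidosis for 53, and these counts share the control samples. The share of all counts in this list was 0.167% to 0.174% in acidosis, 0.280% to 0.294% with SRPIN340 and 0.456% to 0.504% in control.

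The element was searched as GAAA and GAAA, 2 bases apart, on both strands of the 250 bases upstream of the start site (RefSeq promoters, GRCh38.p14). It was found at 25 of 48 listed genes with a promoter (52.1%) and at 2.35% of 11659 tested genes with a promoter. Of the 5 genes lowered by SRPIN340 against control with the smallest adjusted p, the 4 with a match are shown, with the element in capitals, and RIGI had no match in its window.
IFIT1: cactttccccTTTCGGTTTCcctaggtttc
OAS3: gttcggagagccgggcggGAAAACGAAAcc
ISG15: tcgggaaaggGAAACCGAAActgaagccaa
IFI6: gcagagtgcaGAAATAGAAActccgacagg
All are written 5′ to 3′ on the strand of the gene. They lie at chr10:89392510-89392539, chr12:112938444-112938473, chr1:1013380-1013409 (plus strand) and chr1:27672266-27672295 (minus strand). In IFIT1 the match is on the opposite strand. The element ends 94 bases before the start site of IFIT1, 3 bases before that of OAS3, 98 before that of ISG15 and 84 before that of IFI6. Start sites here are those of the RefSeq promoters. For these 4 genes they differ from the starts of the GENCODE gene coordinates used elsewhere. Of these 4 genes, IFIT1 and OAS3 were lower in acidosis than with SRPIN340 and ISG15 and IFI6 higher.

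IFIT1 (chr10:89392546-89406487), which binds viral RNA, was at 4.36, 4.48 and 5.26 CPM in acidosis, 34 and 42.9 CPM with SRPIN340 and 186 and 155 CPM in control. It was 8.19-fold lower in acidosis than with SRPIN340 (log2 fold change -3.03 ± 0.16, adjusted p = 1.57e-06). OAS3, a sensor of double-stranded RNA, was at 53.8, 50.3 and 51.8 CPM in acidosis and 65.3 and 75.7 CPM with SRPIN340, with 226 and 193 CPM in control. Its difference of -0.44 ± 0.095 on the log2 scale had an adjusted p of 0.00361 and was under the fold limit. Without SRPIN340 replicate 2 the adjusted p was 0.072. RIGI, another RNA sensor, showed the same order, at 13.6, 15.6 and 13.1 CPM in acidosis, 20.8 and 23.1 CPM with SRPIN340 and 68.9 and 60.6 CPM in control (-0.64 ± 0.14), and its adjusted p was 0.054 without SRPIN340 replicate 2.

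The order was reversed for ISG15 and IFI6. ISG15, a ubiquitin-like modifier, was at 20.9, 17.4 and 17.5 CPM in acidosis, 7.72 and 7.41 CPM with SRPIN340 and 32.5 and 37.9 CPM in control. It was higher in acidosis than with SRPIN340 by 1.30 ± 0.16 on the log2 scale (adjusted p = 0.000135). This call was lost with total count scaling. IFI6 was at 124, 110.0 and 98.3 CPM in acidosis, 53.2 and 60 CPM with SRPIN340 and 165 and 164 CPM in control (0.97 ± 0.12, just under the fold limit). The other higher calls were IFITM2 (1.09) and B2M, the light chain of MHC class I, at 663 against 222 CPM on average (1.57). The antigen processing subunits PSMB8 (-1.53) and PSMB9 (-2.02), which share exons with each other, were called lower.

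Of the genes lower in acidosis, SAMD9, an antiviral factor, was at 5.62, 6.04 and 8.05 CPM in acidosis and 37.9 and 44 CPM with SRPIN340 (-2.65 ± 0.17). PARP9, a partner of DTX3L in the response to interferon, had a log2 fold change of -2.26 ± 0.14; the genes share exons. The RNA sensor IFIH1 was also called lower (-2.07). Among transcription factors of the pathway, STAT2 (-0.91) was under the fold limit, and IRF9 (0.22), IRF7 (0.40) and IRF1 (-0.15) did not pass the test.

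**Figure D3:**
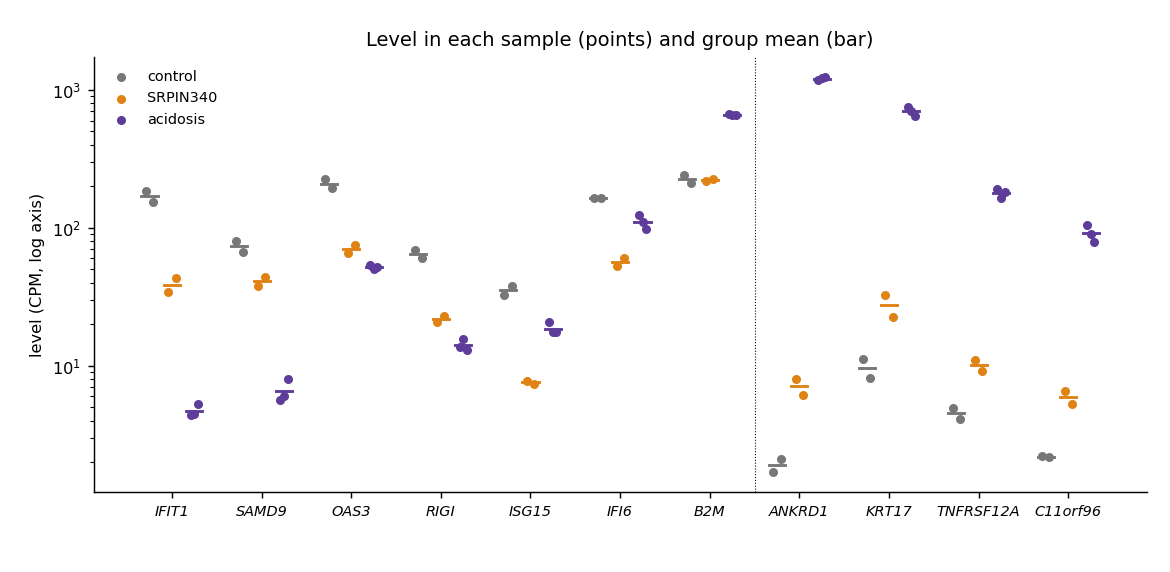
The level of 7 interferon-stimulated genes (left of the dotted line) and of 4 genes that rose with SRPIN340 against control (right) is plotted for each sample in CPM on a log axis, with a bar at each group mean. For IFIT1 the acidosis samples lie lowest, and for ISG15 and IFI6 the SRPIN340 samples do. ANKRD1, KRT17, TNFRSF12A and C11orf96 are highest in acidosis.

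Genes that SRPIN340 raised were compared in the same way. They too were picked with the same SRPIN340 samples, which favours a lower level in acidosis than with SRPIN340 for them. The 5 higher genes with the smallest adjusted p for SRPIN340 against control were ANKRD1, RNASE4, KRT17, TNFRSF12A and C11orf96. ANKRD1, a nuclear cofactor of muscle and a target of YAP, was at 8.06 and 6.11 CPM with SRPIN340, 1.69 and 2.1 CPM in control and 1178, 1213 and 1243 CPM in acidosis. It was 171-fold higher in acidosis than with SRPIN340 (log2 fold change 7.41 ± 0.12, adjusted p = 9.51e-09). KRT17, an epithelial keratin, was at 749.6, 704 and 646 CPM in acidosis, 32.4 and 22.5 CPM with SRPIN340 and 11.2 and 8.09 CPM in control (4.67 ± 0.16). TNFRSF12A, the TWEAK receptor, and C11orf96 were likewise higher in acidosis, by 4.16 ± 0.12 and 3.96 ± 0.17 on the log2 scale. RNASE4, a secreted ribonuclease, differed in direction. It was at 6.26 and 9.2 CPM with SRPIN340, 2.26, 1.72 and 2.23 CPM in acidosis and 1.22 and 0.888 CPM in control, and was lower in acidosis than with SRPIN340 (-1.89 ± 0.27, adjusted p = 0.000338). It shares exons with ANG, so that reads could be split between them.

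Immediate-early genes are induced within minutes by growth factors or stress and encode AP-1 subunits, early growth response factors and phosphatases. Of 40 tested, 36 were called higher in acidosis and 0 lower, and their median was 3.32 (35 and 0 with total count scaling). They held 2.84% to 2.96% of all counts in acidosis and 0.149% to 0.164% with SRPIN340. RHOB (chr2:20447074-20449440), a small GTPase with early response kinetics, reached 15790, 15660 and 16720 CPM in acidosis against 105 and 75.2 CPM with SRPIN340 and 48.7 and 46.4 CPM in control. The difference was 178-fold (log2 fold change 7.48 ± 0.16, adjusted p = 2.82e-08). All 8 AP-1 members tested were called. FOS, the partner of JUN in AP-1, was at 109, 117 and 119 CPM in acidosis and 1.18 and 0.791 CPM with SRPIN340 (6.85 ± 0.16), and JUN averaged 5477 against 167 CPM (5.04). GADD45B, a stress sensor, was at 1195, 1185 and 1162 CPM in acidosis and 12.6 and 11.6 CPM with SRPIN340 (6.61 ± 0.077). EGR1 was called at 4.4. The zinc finger factor EGR2 (0.71, adjusted p = 0.188) and DUSP2 (0.60, adjusted p = 0.346) did not pass the test, and both were near 1 CPM.

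Targets and factors of YAP and TEAD, the end of the Hippo pathway, were divided. Of 29 tested, 7 were called higher in acidosis and 2 lower (median 0.37, and -0.23 with total count scaling, when 6 were called higher and 9 lower). Over all genes 14.6% were called higher and 20.1% lower under TMM scaling. CCN1 (chr1:85580761-85584589), a matricellular protein, was at 4109, 4162 and 4360 CPM in acidosis and 30.1 and 28.8 CPM with SRPIN340, or 143-fold higher in acidosis (7.16 ± 0.069, adjusted p = 1.02e-09). CCN2 was at 929, 928 and 989 CPM in acidosis and 9.32 and 6.94 CPM with SRPIN340 (6.86 ± 0.13). None of the factors was called higher, with YAP1 at 0.52 and WWTR1, which encodes TAZ, at 0.98, and TEAD2 was called lower (-1.14). The letters ACATTCC, bound by TEAD factors, were in the upstream window of 3 of 22 listed promoters (13.6%) against 1.8% of all tested. The serum response (CArG) box was in 2 of 29 immediate-early promoters (6.9%) against 1.02%. The windows of CCN2 (chr6:131951449-131951478, minus strand) and EGR1 (chr5:138465386-138465415, plus strand) are shown as members called higher, with these motifs in capitals.
CCN2: gaggaatgcgaGGAATGTccctgtttgtgt
EGR1: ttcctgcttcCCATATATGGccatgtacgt
In CCN2 the match is on the opposite strand. The motifs end 89 and 74 bases before the start sites.

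Targets of NF-kB, the transcription factor of inflammation, followed. Of 19 tested, 13 were called higher in acidosis and 0 lower (median 2.45, and 1.85 with total count scaling, when 12 and 0 were called). CXCL8 (chr4:73740519-73743716), a neutrophil chemokine, was at 214, 206 and 235 CPM in acidosis and 1.7 and 1.4 CPM with SRPIN340 (7.13 ± 0.13, adjusted p = 1.47e-08). CXCL1 was at 14.2, 17.3 and 18.3 CPM in acidosis and 1.01 and 0.647 CPM with SRPIN340 (4.31 ± 0.26). PTGS2, a cyclooxygenase, was at 149, 154 and 152 CPM in acidosis and 8.27 and 7.44 CPM with SRPIN340 (4.27 ± 0.096). The feedback inhibitors TNFAIP3 (3.38) and NFKBIA (2.85) were called as well. IL6 had 3 counts or fewer in each library of both groups.

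Chaperones help proteins to fold, in the cytosol under heat shock factors and in the endoplasmic reticulum (ER) under the unfolded protein response. Of 31 cytosolic chaperones tested, 17 were called higher in acidosis and 0 lower (median 1.13, and 0.54 with total count scaling, when 9 were called higher and 2 lower). HSPA1A, an inducible HSP70, was at 10010, 10060 and 10780 CPM in acidosis against 206 and 171 CPM with SRPIN340 (5.77 ± 0.10, adjusted p = 1.19e-08), and HSPA1B differed by 4.96 ± 0.089. These genes are nearly identical, and reads may be split between them. HSPA6, an HSP70 with little basal expression, was at 17.1, 12.7 and 18.9 CPM in acidosis and 0.904 and 0.791 CPM with SRPIN340 (4.25 ± 0.27). The mitochondrial chaperones HSPD1 (0.21) and HSPE1 (0.25) were not past the fold limit.

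Of 27 ER genes, 16 were called higher in acidosis and 0 lower (median 1.08, and 0.49 with total count scaling, when 5 were called higher and 1 lower). HSPA5 (chr9:125234853-125241382), the ER chaperone BiP, was at 5512, 5770 and 5653 CPM in acidosis, 345 and 322 CPM with SRPIN340 and 434 and 411 CPM in control. It was 16.9-fold higher in acidosis (4.08 ± 0.058, adjusted p = 3.84e-09). HERPUD1, of ER-associated degradation, was at 344, 358 and 351 CPM in acidosis and 29.8 and 27.1 CPM with SRPIN340 (3.62 ± 0.077). HSP90B1 differed by 2.13 ± 0.055 and the lectin chaperone CALR by 1.89. The sensors split, with EIF2AK3 (1.5) and ERN1 (1.08) called higher and ATF6 at -0.40. The ER stress element, CCAAT and CCACG 9 bases apart, was in 7 of 25 listed promoters (28%) and in 0.12% of all tested. The windows below hold it, or the heat shock element (GAA, TTC and GAA, each 2 bases apart), in capitals. That element was in 4 of 28 cytosolic chaperone promoters (14.3%) against 0.326% of all tested.
HSPA5: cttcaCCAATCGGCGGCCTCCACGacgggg
HSP90B1: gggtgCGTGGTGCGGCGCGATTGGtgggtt
CALR: ccacgCGTGGTCGACCATCATTGGtcggtg
CRELD2: cctctCGTGGCGAACTCGGATTGGgccata
HSPA6: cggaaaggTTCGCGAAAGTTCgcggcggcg
They lie at chr9:125241385-125241414 (minus strand), chr12:103930316-103930345, chr19:12938379-12938408, chr22:49918549-49918578 and chr1:161524458-161524487 (plus strand). The match is on the opposite strand in HSP90B1, CALR, CRELD2 and HSPA6, so that the capitals there read as the reverse complement of the element. CRELD2, which also holds the element, had a log2 fold change of 0.65, under the fold limit.

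The integrated stress response, in which ATF4 directs amino acid synthesis and transport, was split in direction. Of 38 genes tested, 10 were called higher in acidosis and 8 lower (median 0.13, and -0.47 with total count scaling, when 5 were called higher and 11 lower). Over all genes 14.6% were called higher and 20.1% lower under TMM scaling. PPP1R15A, which restores translation by directing dephosphorylation of eIF2α, was at 1993, 2007 and 2018 CPM in acidosis and 48.5 and 44.2 CPM with SRPIN340 (5.44 ± 0.069, adjusted p = 3.06e-09). ATF4 itself was 1.94 higher, and SLC3A2, the heavy chain of amino acid transporters, 2.51 ± 0.10 higher on the log2 scale. PSPH, which makes serine, was at 4.96, 4.74 and 5.66 CPM in acidosis and 30 and 27.5 CPM with SRPIN340 (-2.49 ± 0.15). The cystine transporter SLC7A11 (-2.14), TRIB3 (-1.85) and CHAC1 (-1.36) were called lower in acidosis, and their means with SRPIN340 were above control (27.7 against 15.4 CPM for SLC7A11). DDIT3 did not pass the test (0.16, adjusted p = 0.277).

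Replication-dependent histone genes package newly made DNA, and the 27 lists have no median farther from 0 than theirs. Their mRNAs normally end in a stem-loop without a poly(A) tail, so that poly(A) selection captures the polyadenylated part. Of 62 listed, the mean was higher in acidosis for 51, and every acidosis sample lay above both SRPIN340 samples for 43. Over all tested genes the groups did not overlap, in either direction, for 79%. The filter, which a gene could pass through its acidosis level alone, left 38 of the 62. Of these, 37 were called higher in acidosis and 0 lower, and their median was 4.25 (35 and 0, with a median of 3.67, under total count scaling). As this filter favours members high in acidosis, those counts are a description, and 25 of all 62 had 3 counts or fewer in each SRPIN340 library. The list held 0.184% to 0.198% of all counts in acidosis, 0.00952% to 0.0113% with SRPIN340 and 0.0136% to 0.0165% in control. H2BC21 (chr1:149884459-149886682) was at 516, 526 and 487 CPM in acidosis and 4.55 and 4.35 CPM with SRPIN340 (6.84 ± 0.09, adjusted p = 3.06e-09). H2BC8 was at 32.1, 32.5 and 35.3 CPM in acidosis and 0.452 and 0.359 CPM with SRPIN340 (6.33 ± 0.20), and the linker histone H1-2 averaged 791 against 17.8 CPM (5.47). H2AC19 was at 13.5, 59.3 and 16.2 CPM in acidosis and at 0 in both SRPIN340 and both control libraries. Its acidosis mean, raised by 1 sample, was 279.7-fold above a floor of 3 counts in each SRPIN340 library. H2AC19 has a near-identical copy, H2AC18, so that its counts are uncertain. H2BC26, outside the list, was at 178, 161 and 199 CPM in acidosis and 0.939 and 1.11 CPM with SRPIN340 (7.44 ± 0.16). The smallest member was H4C3 (0.93, adjusted p = 0.136), which was not called.

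The octamer ATTTGCAT, bound by OCT1 and known from H2B promoters, was in the windows of 13 of 37 histone promoters (35.1%) and of 1.36% of all tested. It is shown in capitals in 3 members called higher.
H2BC21: tcggagccctaATTTGCATaaggtggttat
H2BC8: ttgaattctttATTTGCATgaaaggcctat
H2BC12: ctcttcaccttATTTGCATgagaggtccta
They lie on the minus strand at chr1:149886710-149886739, chr6:26216718-26216747 and chr6:27146886-27146915. The octamer ended 39 to 41 bases before the start site. The letters CCAAT were in 30 of the 37 (81.1%) and in 34.9% of all tested.

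Genes of replication and mitosis had medians near that of all genes under TMM scaling. Of 45 DNA replication genes, 8 were called higher in acidosis and 8 lower (median 0.057, and -0.54 with total count scaling, when 1 was called higher and 15 lower). The counts under TMM scaling were near the 14.6% higher and 20.1% lower of all genes. POLD2, a subunit of polymerase delta, was at 270.0, 279 and 267 CPM in acidosis and 92.6 and 85.6 CPM with SRPIN340 (1.61 ± 0.069). RRM2, which supplies deoxynucleotides, had 1.56. The primase subunits PRIM1 (-1.89 ± 0.15) and PRIM2 (-1.61 ± 0.11) were lower. Of 39 mitotic genes, 2 were called higher and 8 lower, near the 20.1% of all genes (median -0.065, and -0.66 with total count scaling, when 0 were called higher and 16 lower). They held 0.375% to 0.406% of all counts in acidosis and 0.644% to 0.655% with SRPIN340. This share carries the general shift of total count scaling, under which the median of all genes was also -0.66. KIF11, the motor that separates spindle poles, was at 40.5, 47.6 and 42.1 CPM in acidosis and 183 and 202 CPM with SRPIN340 (-2.15 ± 0.092, adjusted p = 4.97e-07). The kinase AURKA (-1.96 ± 0.10) and SPC25 of the kinetochore (-2.23 ± 0.24) were also lower, and FOXM1 (1.30) was higher. Of 31 proteasome subunits, 2 were called higher (PSMD2 at 1.33 and PSMB3 at 1.10) and 1 lower (PSMA3 at -1.02), and 27 had intervals within -1 to 1, while 0 were called higher and 5 lower with total count scaling.

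Mitochondrially encoded genes, which supply subunits of the respiratory chain, were lower in acidosis. Their median was -2.30. All 13 were called lower, and 12 without SRPIN340 replicate 2. They held 0.307% to 0.346% of all counts in acidosis, 2.38% and 2.89% with SRPIN340 and 2.41% to 2.46% in control. MT-CO1, a subunit of cytochrome oxidase, was at 441, 487 and 446 CPM in acidosis, 4096 and 5283 CPM with SRPIN340 and 4269 and 4219 CPM in control, or 10.2-fold lower in acidosis (-3.36 ± 0.10, adjusted p = 1.2e-07). MT-CO2 (-3.19 ± 0.082) and MT-ND3 (-2.64 ± 0.10) followed, and MT-ND2 differed least (-1.14). The SRPIN340 samples differed from each other in MT-CO1 by more than the acidosis samples did.

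In glycolysis, 13 of 26 genes were called higher in acidosis and 2 lower (median 0.98, and 0.38 with total count scaling, when 3 were called each way). The glucose transporter SLC2A1 was at 146, 171 and 145 CPM in acidosis and 37 and 36.1 CPM with SRPIN340 (2.07 ± 0.10). ALDOA (1.70) and GAPDH (1.62) were called higher. PDHB, of pyruvate dehydrogenase, and its inhibitor PDK3 were called lower (-1.30 and -1.33). For proton transport and sensing genes, 14 of 27 tested had intervals within -1 to 1. Of these 27, 3 were called higher and 4 lower (median -0.24, and -0.83 with total count scaling, when 1 was called higher and 9 lower). Over all genes 14.6% were called higher and 20.1% lower under TMM scaling. BSG, a chaperone of lactate transporters, was at 1024, 965 and 1047 CPM in acidosis and 316 and 302 CPM with SRPIN340 (1.71 ± 0.061). The bicarbonate transporters SLC4A4 (-2.0 ± 0.23) and SLC4A7 (-1.30 ± 0.12) were lower. Of 6 acid-sensing channels or receptors tested, 1 was called higher and 2 lower, with log2 fold changes from -4.03 to 1.49. Among V-ATPase and lysosome genes, 15 of 32 were called higher and 2 lower (median 0.96, and 0.37 with total count scaling, when 5 and 4 were called). TFE3, a transcription factor of lysosomal genes, was at 280.0, 268 and 275 CPM in acidosis and 53.9 and 54.9 CPM with SRPIN340 (2.33 ± 0.067), and the proton pore subunit ATP6V0C had 2.29 ± 0.064. The cathepsins went both ways, with CTSD at 1.65 and CTSL at -2.19 ± 0.1.

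**Figure D4:**
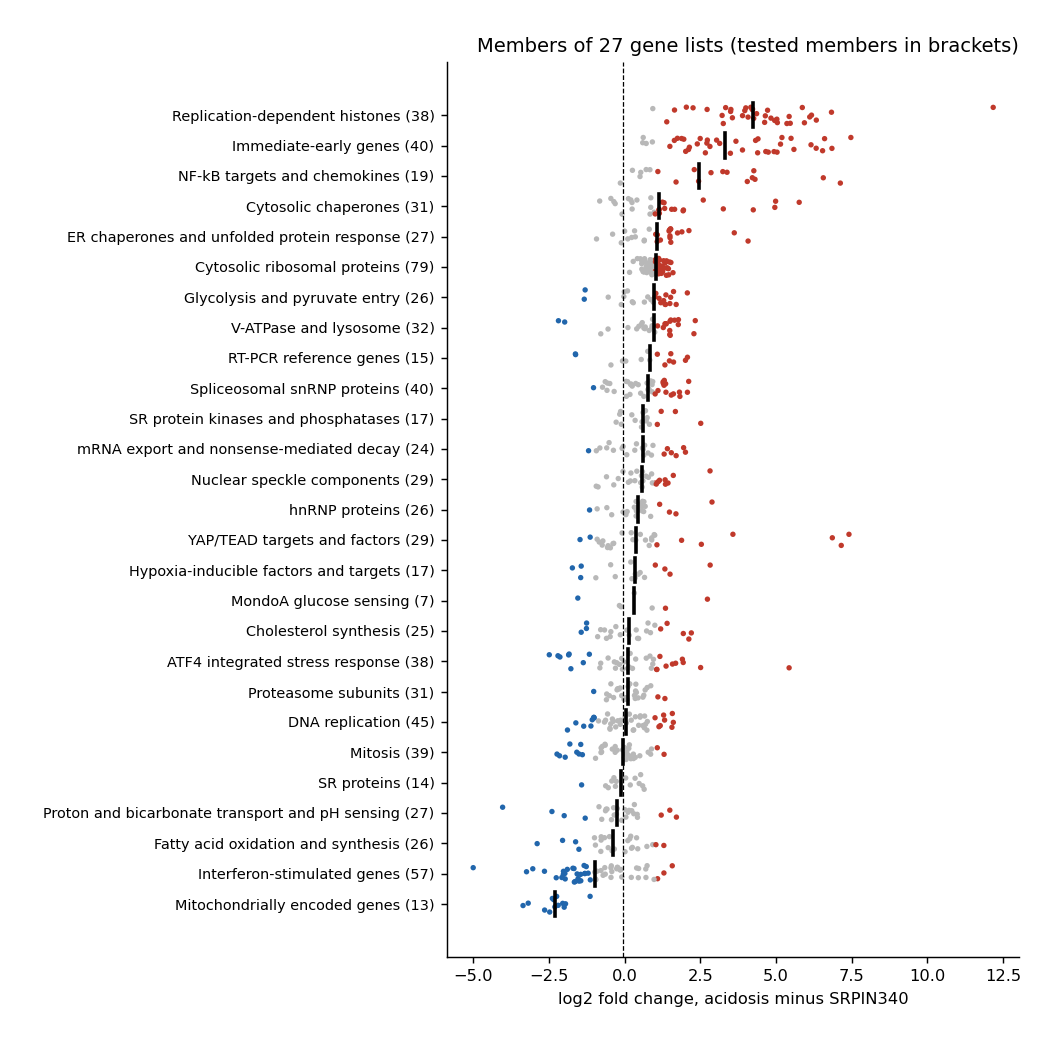
Each point is a tested member of a gene list, placed by its log2 fold change (acidosis minus SRPIN340), red where called higher in acidosis, blue where called lower and grey where not called. Black bars mark the median of a list and the dashed line that of all genes (-0.067). Histones (4.25) and immediate-early genes (3.32) lie farthest to the right, and mitochondrially encoded genes (-2.30) farthest to the left.

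Genes often used as references also differed. Of 79 cytosolic ribosomal protein genes, all had an adjusted p under 0.05 and were higher in acidosis, and 43 passed the fold limit (median 1.03). With total count scaling 1 was called higher and 0 lower, and the median was 0.43. RPS2 was at 4040, 3612 and 4098 CPM in acidosis and 1383 and 1203 CPM with SRPIN340 (1.6 ± 0.081). Many have processed pseudogenes, and reads may be split. Of 15 common RT-PCR references, 7 were called higher and 2 lower (median 0.83, and 0.24 with total count scaling, when 3 were called each way). TFRC, the transferrin receptor, was 2.08 ± 0.074 higher in acidosis on the log2 scale. IPO8, a nuclear importin, was 3.09-fold lower (-1.63 ± 0.10). TBP, the reference in the study's PCR, was at 20.5, 20.4 and 17.5 CPM in acidosis and 27.3 and 26 CPM with SRPIN340 (-0.45 ± 0.12, adjusted p = 0.0118), and its adjusted p was 0.095 and 0.065 without SRPIN340 replicate 1 and 2. HPRT1 did not pass the test (0.039, adjusted p = 0.68).

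The genes the study used for splicing checks or named were compared by level alone. FGF5, a growth factor, was at 1.88, 3.79 and 1.75 CPM in acidosis and 8.1 and 8.66 CPM with SRPIN340 (-1.78 ± 0.33, adjusted p = 0.0014). SEMA6D, an axon guidance ligand, was at 3.03, 2.24 and 2.55 CPM in acidosis and 13.3 and 14.7 CPM with SRPIN340 (-2.40 ± 0.20). MYCN was below 1 CPM in each acidosis library and at 4.94 and 4.78 CPM with SRPIN340 (-2.57 ± 0.31). TRIM59 overlapped between the groups, with an interval of -0.46 to 0.31. CTNND1, which encodes p120 catenin, was higher in acidosis by 0.60 ± 0.071, under the fold limit. SNRPA, of the U1 particle, was called higher (1.81 ± 0.11).

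The most extreme genes by the fixed rule that have not been described were few among the higher and all among the lower. ARL14, a small GTPase, was at 71.8, 71.5 and 74.7 CPM in acidosis and 0.73 and 0.324 CPM with SRPIN340 (7.08 ± 0.22). UTP14C was at 16.6, 29.7 and 20.9 CPM in acidosis, 0 in both SRPIN340 libraries and 5.84 and 11.3 CPM in control. Its acidosis mean was 211-fold above a floor of 3 counts in each SRPIN340 library. UTP14C shares exons with ALG11, so that its level is uncertain. The lowest was PNMA8A (chr19:46466491-46471563), at 2.32, 1.64 and 1.51 CPM in acidosis and 41.5 and 45.5 CPM with SRPIN340, or 23.2-fold lower (-4.53 ± 0.18, adjusted p = 3.83e-07). PLXDC2, a membrane protein, was at 2.7, 2.07 and 3.83 CPM in acidosis and 49.8 and 51.2 CPM with SRPIN340 (-4.14 ± 0.19). Then came MAPK4 (-3.86), an atypical MAP kinase, and KAT14 (-3.82), an acetyltransferase subunit that shares exons with PET117. The others were CDH7 (-3.72), PRAME (-3.52), RASSF5 (-3.52), MARCHF8 (-3.51), ZNF780A (-3.46) and RASSF2 (-3.44). In each of these 10 genes the SRPIN340 samples lay above 20 CPM, near control or above it, and the acidosis samples below 7 CPM.

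Some genes were measured as nearly equal. Above 100 CPM on average, the intervals that reached least far from 0 were those of MOB1A (-0.15 to 0.13), PARP1 (-0.075 to 0.15), TPX2 (-0.16 to 0.14), ATP5PO (-0.16 to 0.14) and ACTR3 (-0.15 to 0.16). PARP1, which senses DNA breaks, was at 764, 779 and 789 CPM in acidosis and 758 and 758 CPM with SRPIN340, with 942 and 919.6 CPM in control. TPX2, a spindle assembly factor, was at 159, 167 and 157 CPM in acidosis and 165 and 159 CPM with SRPIN340. These intervals hold for TMM scaling, and with total count scaling PARP1 and ACTR3 were at -0.56 and -0.59. At the other extreme, a few genes varied between the acidosis samples themselves. TK2, a mitochondrial kinase, was at 5.18, 4.22 and 48.5 CPM in acidosis, so that 1 sample carried the group, and 14.5 and 12.6 CPM with SRPIN340 (interval -1.54 to 2.53). Without that sample its log2 fold change was -1.5. ZBTB20 was at 5.13, 46.1 and 22.5 CPM in acidosis and 17.1 and 7.66 CPM with SRPIN340, and HDAC4 at 6.34, 22.6 and 11.6 CPM and 12.6 and 11.1 CPM, and neither passed the test, although ZBTB20 did without acidosis replicate 1 (adjusted p = 0.021). ENSG00000285238 was at 27.2, 47.7 and 0 CPM in acidosis. It passed the test (adjusted p = 0.00792) although 1 acidosis sample was at 0, did not without SRPIN340 replicate 2 (adjusted p = 0.056), and it shares exons with CHD4 and NOP2.

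The direction of calls was also described by gene structure, from the canonical transcript of each gene in GENCODE release 44. Of 357 tested genes with a single exon, 29.4% were called higher in acidosis and 24.6% lower. Of 2031 genes with more than 20 exons, 9.55% were called higher and 20.2% lower. By transcript length, 32.4% of 800 genes under 1 kb were called higher and 8.25% lower, against 10.7% and 21.4% of 1353 genes over 8 kb. The shares were also taken at a like level in control. From 10 to 100 CPM, 18.1% of single-exon genes were called higher, 19.9% of those with 2 exons, 19.1% of those with 3 to 5 and 7.87% of those with more than 20, so that the single-exon share did not stand above its neighbours there. At that level 26.8% of those under 1 kb and 9.38% of those over 8 kb were called higher. At a control level of at least 100 CPM the shares by length were 49.2% and 14.5%. Short genes include ribosomal proteins and histones, whose part in this was not tested. Genes are not independent replicates, and no test was made.

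**Figure D5:**
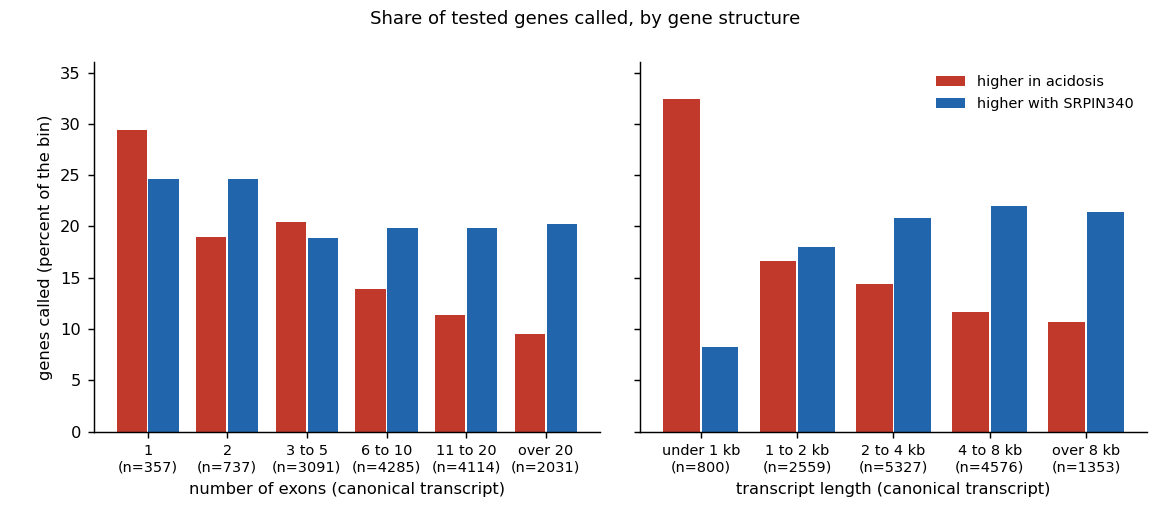
Bars show the percent of tested genes in each bin called higher in acidosis (red) and higher with SRPIN340 (blue), by number of exons (left) and length (right) of the canonical transcript, with the number of genes in each bin below. The red bars stand at 29.4% for a single exon and 9.55% for more than 20 exons, and at 32.4% under 1 kb and 10.7% over 8 kb.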

How the data were processed

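Per the labels and the study's methods, paired-end reads were trimmed with Trimmomatic 0.39 and Trim Galore 0.6.6 and quantified by the authors with Salmon 1.5.1 against a Gencode GRCh38 transcriptome, then summed to genes with tximport. The values the authors deposited are estimated counts per gene, not normalized between samples. The tximport option is not given in the sources used here. The methods describe separate biological repeats, each in replicates, with 1 column per sample here; no batch is labelled.

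After rounding, the 5 samples were tested in R 4.3.3 with edgeR 4.0.16 (filterByExpr, TMM, quasi-likelihood test, group only). Calls needed an adjusted p (Benjamini-Hochberg) below 0.05 and a log2 fold change past 1 in size. Standard errors came from the test statistic, and ± is the SE throughout. Control levels were put on the same scale, and SRPIN340 against control used all 7 samples. A group with 3 counts or fewer in each library was treated as at the floor. Of 19978 genes, 19977 matched GENCODE release 44, and gene coordinates are GRCh38 from it. Start sites of promoters are from RefSeq and can differ from the gene starts.

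On simulated counts of the 14615 genes with 200 changed, edgeR recovered 96% with 1 false call and DESeq2 1.42.0 recovered 93.5% with 0. Far fewer genes were changed there than the 34.7% called in the data, and about equally in both directions. The simulation therefore checks the running of the tools and cannot bear on the choice of scaling.

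Named were the 10 highest and 10 lowest calls above 10 CPM on average without overlap of the groups, up to 3 called members of each list at that level, genes the study names, all SR proteins and their kinases, the 5 higher and 5 lower SRPIN340 calls against control, the 5 genes of at least 100 CPM nearest to equal, the 5 that varied most in acidosis and those with a sequence shown. Some genes that this rule names are not reported here. Other members named were chosen after their values were seen. Members and lists were chosen with earlier results of these data known. Alternatives were the tool, scaling, filter, samples fitted, the fold limit, a replicate block and each sample left out. Figures were drawn with matplotlib 3.10.9.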

Additional observations from a re-analysis of the deposited data

How the results depend on the processing

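Calls were counted again under each alternative. DESeq2 gave 4889 calls, RLE size factors 5095, no filter 5111, a limit of 6 CPM on the higher group mean 3908, all 7 samples in the fit 5148, and counts thinned to the smallest library, chosen after seeing the data, 4968. No called gene that was also called under an alternative changed sign. With total count scaling 777 genes were called higher and 5396 lower, and of the listed genes 139 and 179, in place of 280 and 92. With no fold limit 9913 genes passed (4750 higher, 5163 lower), over a log2 fold change of 2 there were 1454 (501 and 953), and glmTreat against the fold limit gave 3050 (1330 and 1720). Within a log2 limit of 0.5, 1723 intervals lay. Leaving out each sample in turn gave 4531 to 5129 calls, 1990 to 2216 higher and 2517 to 2913 lower. Deviations from the group means had correlations of 0.0638 and 0.0437 between samples of equal replicate number. The 2 SRPIN340 samples deviate from their mean by equal and opposite amounts, so that these values cannot decide whether samples were paired. With a replicate block there were 4950 calls, 92.6% of the 5065 shared.

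Some signs turned. With total count scaling, which lowers every value, positive values turned, on the log2 scale, for DYRK1B -0.016, CSNK2B -0.036, PPP1CB -0.35, PPP1CC -0.25, SRSF1 -0.41, SRSF2 -0.11, SRSF10 -0.063, SRSF11 -0.56, TRA2A -0.25, HNRNPA1 -0.19, PARP1 -0.56, ACTR3 -0.59, TK2 -0.10 and HDAC4 -0.42. MOB1A, TPX2 and ATP5PO turned to 0.040, 0.041 and 0.040 with DESeq2, 0.040, 0.042 and 0.040 with RLE, 0.011, 0.012 and 0.011 with all 7 samples, and MOB1A and TPX2 to 0.0078 and 0.0062 after thinning. ACTR3 was -0.0012 without a filter, -0.033 at 6 CPM and -0.000054 after thinning, and SRSF11 and PARP1 were -0.0030 and -0.0019 at 6 CPM. With the block TRIM59 was 0.063, TPX2 0.0093, ACTR3 -0.023 and TK2 -1.53. Leaving out 1 sample, TPX2 turned to 0.0071 to 0.021, MOB1A to 0.026 and 0.028, ATP5PO to 0.011 and 0.043, ACTR3 to -0.0094 and -0.010, SRSF11 to -0.0042, CLK2 to 0.011, HDAC4 to -0.39, TRIM59 to 0.074 and TK2 to -1.5. The mitotic median relative to all genes, 0.0016, turned to -0.00014 with DESeq2, -0.055 at 6 CPM, -0.0056 with the block, -0.196 without genes that share exons (also added after seeing the data) and lay between -0.088 and 0.070 when a sample was left out. Over the named genes, log2 fold changes then ranged from -4.77 (PNMA8A) to 12.6 (H2AC19, at the floor with SRPIN340, so that the fitted value is no bound). The cause of these changes was not tested. Depth limits low genes: the median SE of the log2 fold change was 0.656 under 1 CPM and 0.0575 in the most abundant bin, and with 3 and 2 samples no exact test of a single value can go below 0.1.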

Other observations

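Lipid and oxygen-responsive genes, not described above, were mixed in direction. Of 25 cholesterol genes, 5 were called higher in acidosis than with SRPIN340 and 3 lower (median log2 fold change 0.15, and -0.44 with total count scaling, when 3 were called higher and 9 lower). Over all genes 14.6% were called higher and 20.1% lower under TMM scaling. HMGCS1, an early enzyme of the pathway, was at 2257, 2406 and 2121 CPM in acidosis and 528 and 510.4 CPM with SRPIN340 (2.12 ± 0.067). IDI1, another enzyme of the pathway, was also called higher (1.94 ± 0.061). NSDHL, a later enzyme, was called lower (-1.43). Of 15 genes of fatty acid oxidation, 0 were called higher and 4 lower. CPT2, which moves fatty acids into mitochondria, was at 4.74, 5.6 and 3.19 CPM in acidosis and 34.2 and 32.8 CPM with SRPIN340 (-2.89 ± 0.20), and ACADSB (-2.05 ± 0.20) and ACADM (-1.62 ± 0.13) were lower. Of 11 genes of fatty acid synthesis, 2 were called higher and 0 lower, with FASN at 1.30. With total count scaling 0 of these 26 genes were called higher and 13 lower, against 777 and 5396 of 14615 tested genes.

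Of 17 hypoxia-inducible factors and targets, 4 were called higher and 3 lower (median 0.35, and -0.25 with total count scaling, when 1 was called higher and 5 lower). Over all genes 14.6% were called higher and 20.1% lower under TMM scaling. ADM, a vasodilator peptide, was at 65.8, 55.9 and 64 CPM in acidosis and 9.18 and 8.27 CPM with SRPIN340 (2.83 ± 0.13), and NDRG1 was higher (1.5 ± 0.11). EGLN3, which marks HIF for destruction, was lower (-1.73 ± 0.16). Of 7 genes of MondoA glucose sensing, 2 were called higher and 1 lower (median 0.32, and -0.27 with total count scaling, when 1 was called each way). ARRDC3, an arrestin-like target, was at 46.1, 42.1 and 47.8 CPM in acidosis and 9.0 and 4.57 CPM with SRPIN340 (2.74 ± 0.26), MLXIP, which encodes MondoA, was 1.35 ± 0.082 higher, and TXNIP did not pass the test (0.32, adjusted p = 0.122).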
